A study of Mus musculus with 9 samples.

Results

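A set of 8 genes of cholesterol supply is described here in mouse pluripotent stem cells under 3 culture conditions. They are Hmgcs1, Idi1, Fdft1, Sqle, Lss and Dhcr7, which encode enzymes of cholesterol synthesis, and Insig1 and Srebf2, which encode regulators of the pathway. They were taken as a named set, each through the array probe set that carries that gene symbol alone, or the brightest of them by mean where a gene has 2, and all 8 were found among 19938 genes tested. None of the 8 is a receptor for lipoprotein uptake, so uptake is described below from a wider list.

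RNA of 9 samples, 3 per group, was measured on 1 array each. Epiblast stem cells (EpiSCs), the primed state of the later epiblast, were of strain CD1 and were kept either in CHIR99021, a GSK3 inhibitor that stabilises beta-catenin, with XAV939, a tankyrase inhibitor that stabilises Axin (CHIR/XAV), or in the growth factors FGF2 and activin. Embryonic stem cells (ESCs), the naive state, were of strain 129 and were kept in 2i, commonly CHIR99021 with the MEK inhibitor PD0325901. The labels list CHIR99021 at 3 µM, PD0325901 at 1 µM, XAV939 at 2 µM, and FGF2 and activin at 10 ng/ml each for every sample alike, and do not assign them sample by sample. They also give every sample the same GMEM medium with 10% fetal bovine serum, which carries lipoprotein cholesterol, and the tissue name of mouse embryonic stem cell. Strain and culture agents differ along with cell type, and the 3 cannot be told apart in a comparison against ESCs. Whether replicates were separate cultures or lines is not stated, and p-values then cover only array-to-array spread that may be technical. Values are log2 expression, on which 1 unit is a factor of 2.0, and a gene is called changed where limma, fitted to all genes and arrays, gave a Benjamini-Hochberg adjusted p under 0.05.

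Pearson correlations over all genes ran from 0.996 to 0.998 within groups and from 0.933 to 0.975 between groups. All 10 naive markers were lower and all 7 primed markers higher in each EpiSC culture, relative to ESCs. The mean level of 9 fibroblast or feeder markers per array was 5.18 to 5.25 in CHIR/XAV EpiSCs, 5.06 to 5.07 in FGF2/activin EpiSCs and 5.01 to 5.04 in ESCs. Of these 9 markers 1 was called higher (Thy1, 1.77) and 1 lower (Pdgfrb, -0.21) in CHIR/XAV EpiSCs against ESCs. For FGF2/activin EpiSCs 4 were called higher (Col1a2 by 0.18, Thy1 by 0.25, Twist2 by 0.43 and Postn by 0.36) and 1 lower (Pdgfrb, -0.72). For 8 extraembryonic endoderm markers the mean level was at most 5.13 in CHIR/XAV EpiSCs, 5.17 in FGF2/activin EpiSCs and 5.12 in ESCs. Of these 8 markers 0 were called higher and 1 lower (Gata4, -0.32) in CHIR/XAV EpiSCs against ESCs. The FGF2/activin EpiSCs had 2 called higher (Cubn, 1.63, and Gata6, 0.50) and 5 lower (Gata4, -0.54, Sox17, -0.23, Ttr, -0.27, Apoa1, -0.29, and Hnf4a, -0.30). Over all genes 24.7% were called higher and 22.1% lower in CHIR/XAV EpiSCs against ESCs, and 27.8% and 33.5% in FGF2/activin EpiSCs. The mean levels of the fibroblast and endoderm lists lay below the array medians, which ran from 5.57 to 5.65. Some of their members lay above, among them Thy1 at 7.21 in CHIR/XAV EpiSCs and Cubn at 6.12 in FGF2/activin EpiSCs. The part of other cell types in the results below was not tested, and in bulk RNA fewer cells of a type and less RNA per cell cannot be told apart.

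Cholesterol is built from acetyl-CoA through mevalonate, the isoprenoid units and squalene, which is closed to lanosterol and then trimmed to cholesterol. The genes of the pathway are switched on together by the transcription factor SREBP2, the product of Srebf2. When sterols in the endoplasmic reticulum are low, the escort protein SCAP carries SREBP2 to the Golgi, where proteases release its active part. When sterols are high, INSIG proteins hold SCAP back, and Insig1 is itself a target of SREBP, so its transcript goes down when SREBP activity does. SREBPs act at sterol regulatory elements together with NF-Y, which binds CCAAT boxes.

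Promoter sequences from RefSeq (GRCm38.p6) were at hand for 6 of the 8 genes: Hmgcs1, Idi1, Lss, Dhcr7, Insig1 and Srebf2. Shown are the 250 bases before the gene start of Hmgcs1, Insig1, Idi1 and Srebf2. Hmgcs1 holds a match to the sterol regulatory letters given below, and the transcript of Insig1 changed most. Idi1 and Srebf2 were called higher in 1 EpiSC culture and lower in the other relative to ESCs. Capitals mark every match, on either strand, to the sterol regulatory letters TCACNCCAC or to CCAAT, which reads ATTGG on the other strand. No matches of the 2 motifs overlap in these sequences.
Hmgcs1 (chr13:119690101-119690350, plus strand): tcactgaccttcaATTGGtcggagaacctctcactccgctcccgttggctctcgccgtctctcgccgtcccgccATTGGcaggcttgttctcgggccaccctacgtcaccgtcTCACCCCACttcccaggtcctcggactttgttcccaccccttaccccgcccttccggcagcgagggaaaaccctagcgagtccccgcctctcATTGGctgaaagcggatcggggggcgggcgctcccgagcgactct
Idi1 (chr13:8885356-8885605, plus strand): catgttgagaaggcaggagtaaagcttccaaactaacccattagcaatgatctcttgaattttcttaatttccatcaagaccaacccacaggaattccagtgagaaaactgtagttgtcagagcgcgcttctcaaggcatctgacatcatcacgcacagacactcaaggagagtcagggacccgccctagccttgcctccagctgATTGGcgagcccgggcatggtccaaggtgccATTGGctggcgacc
Insig1 (chr5:28071162-28071411, plus strand): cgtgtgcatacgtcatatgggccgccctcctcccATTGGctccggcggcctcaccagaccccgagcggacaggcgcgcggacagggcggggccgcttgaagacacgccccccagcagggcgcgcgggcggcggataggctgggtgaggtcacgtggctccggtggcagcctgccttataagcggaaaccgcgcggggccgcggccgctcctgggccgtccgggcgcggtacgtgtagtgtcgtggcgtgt
Srebf2 (chr15:82147019-82147268, plus strand): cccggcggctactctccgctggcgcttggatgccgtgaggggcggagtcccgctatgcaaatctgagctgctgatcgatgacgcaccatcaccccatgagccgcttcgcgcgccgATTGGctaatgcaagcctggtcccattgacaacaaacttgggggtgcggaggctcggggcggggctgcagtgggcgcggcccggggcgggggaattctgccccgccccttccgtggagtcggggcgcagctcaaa
Hmgcs1 has the sterol regulatory letters 137 bases before the start and 3 CCAAT boxes, all inverted. Idi1 has inverted CCAAT boxes 45 and 14 bases before the start, Insig1 has 1 at 216 bases and Srebf2 has 1 at 135 bases. A CCAAT box stood in at least 1 promoter window of all 6 genes, and of all 15 synthesis enzyme genes measured that the table lists, against 37.5% of the 27025 genes of the table. The sterol regulatory letters stood in 1 of the 6 genes and in 1.22% of all genes of the table. A match of letters is no evidence of binding, and Dhcr7 has its matches in 1 of its 3 listed start sites. Only exact matches within 250 bases were counted, so the lack of a match does not show that a gene lacks such an element.

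**Figure D1:**
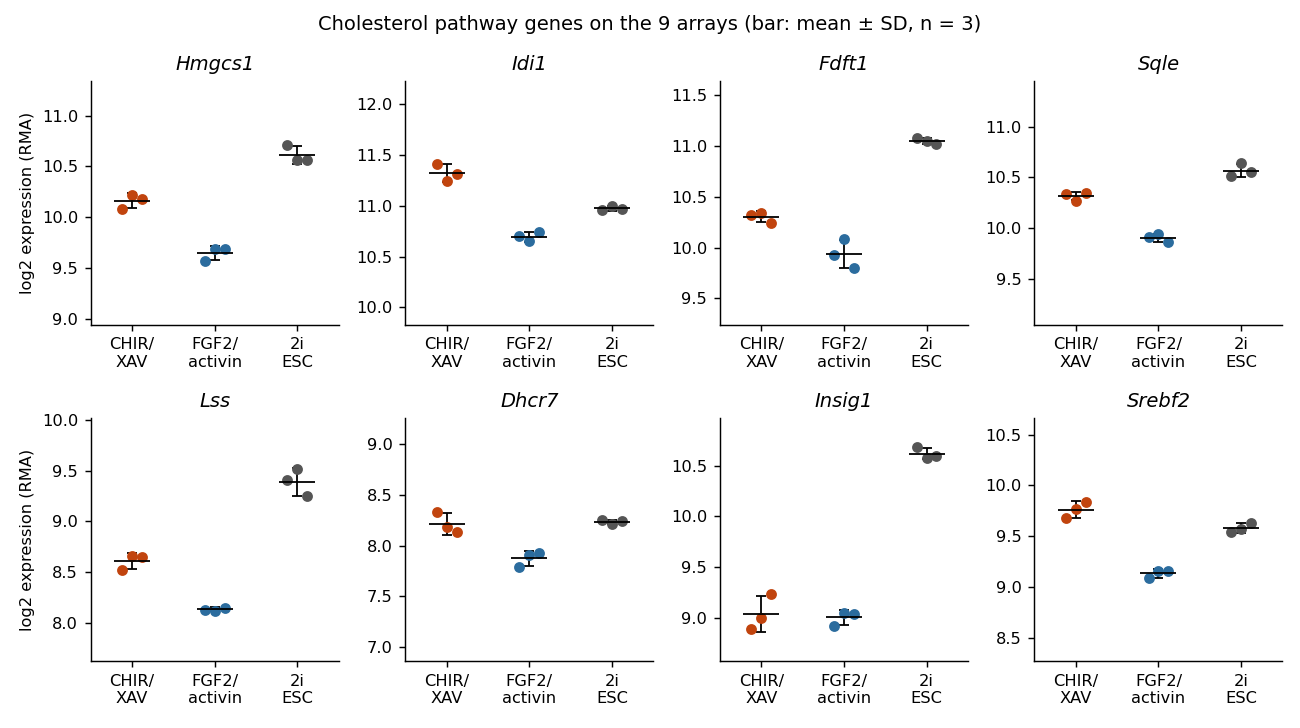
Level of each of the 8 genes on every array, in log2 expression, with CHIR/XAV EpiSCs left, FGF2/activin EpiSCs in the middle and ESCs right. Bars are the mean ± SD of 3 arrays, every panel spans the same height, and the FGF2/activin points lie below the ESC points in all 8 panels.

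Hmgcs1 encodes HMG-CoA synthase 1, which makes the HMG-CoA that the pathway reduces to mevalonate. Its level was 10.08, 10.22 and 10.18 in CHIR/XAV EpiSCs, 9.57, 9.69 and 9.69 in FGF2/activin EpiSCs, and 10.71, 10.56 and 10.56 in ESCs. The 3 groups did not overlap, with FGF2/activin EpiSCs lowest and ESCs highest. Against ESCs it fell by 0.45 (SE 0.07, limma adjusted p = 0.000113) in CHIR/XAV EpiSCs. In FGF2/activin EpiSCs it fell by 0.96 (SE 0.07, adjusted p = 3.88e-08), which is 1.95-fold lower than in ESCs. CHIR/XAV EpiSCs were higher than FGF2/activin EpiSCs by 0.51 (adjusted p = 4.9e-05).

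Idi1 encodes isopentenyl diphosphate isomerase 1, which interconverts the isoprenoid building blocks, and it followed another order. Its level was 11.41, 11.24 and 11.31 in CHIR/XAV EpiSCs, 10.70, 10.65 and 10.74 in FGF2/activin EpiSCs, and 10.96, 11 and 10.97 in ESCs. CHIR/XAV EpiSCs were thus highest and ESCs in the middle, again without overlap. Against ESCs it rose by 0.34 (SE 0.07, limma adjusted p = 0.000616) in CHIR/XAV EpiSCs and fell by 0.28 (SE 0.07, adjusted p = 0.00248) in FGF2/activin EpiSCs. The difference between the EpiSC cultures was 0.63 (SE 0.07, adjusted p = 3.82e-06). The dimmer Idi1 probe set gave the same directions, with a rise of 0.25 (adjusted p = 0.0354) and a fall by 0.30 (adjusted p = 0.0125), although its CHIR/XAV values, 11.28, 10.90 and 10.92, were spread more widely. Idi1 has a close relative, Idi2, and how far the probes separate them was not tested.

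Fdft1 encodes squalene synthase, which commits isoprenoid units to sterols. It stood at 10.32, 10.34 and 10.24 in CHIR/XAV EpiSCs, 9.93, 10.08 and 9.80 in FGF2/activin EpiSCs, and 11.08, 11.05 and 11.02 in ESCs. All 3 groups were apart, and the widest gap lay between ESCs and the EpiSCs. The fall was 1.68-fold in CHIR/XAV EpiSCs (log2 change -0.75, SE 0.075, limma adjusted p = 1.2e-06) and 2.16-fold in FGF2/activin EpiSCs (log2 change -1.11, SE 0.075, adjusted p = 1.31e-08). The EpiSC cultures differed by 0.37 (adjusted p = 0.00129), with CHIR/XAV higher. On the dimmer Fdft1 probe set the changes against ESCs were -0.66 and -0.92 for the same cultures, and the difference between them was 0.26 (adjusted p = 0.0178).

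Sqle encodes squalene epoxidase, the first oxygen-using and a rate-limiting step. Its level was 10.34, 10.27 and 10.35 in CHIR/XAV EpiSCs, 9.91, 9.94 and 9.86 in FGF2/activin EpiSCs, and 10.51, 10.64 and 10.55 in ESCs. The CHIR/XAV arrays lay just under the ESC arrays and the FGF2/activin arrays well under them. Sqle fell by 0.25 (SE 0.06, limma adjusted p = 0.00539) in CHIR/XAV EpiSCs and by 0.66 (SE 0.06, adjusted p = 7.03e-07) in FGF2/activin EpiSCs. CHIR/XAV EpiSCs were higher than FGF2/activin EpiSCs by 0.41 (adjusted p = 0.00013).

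Lss encodes lanosterol synthase, which closes the rings of the sterol. It was at 8.52, 8.66 and 8.65 in CHIR/XAV EpiSCs, 8.13, 8.12 and 8.15 in FGF2/activin EpiSCs, and 9.41, 9.52 and 9.25 in ESCs. Here too no group overlapped another. Among the 6 enzymes of the set it changed most: it was 1.72-fold lower in CHIR/XAV EpiSCs (log2 change -0.78, SE 0.08, limma adjusted p = 9.2e-07) and 2.39-fold lower in FGF2/activin EpiSCs (log2 change -1.25, SE 0.08, adjusted p = 4.2e-09). The difference between the EpiSC cultures was 0.47 (adjusted p = 0.000182).

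Dhcr7 encodes the reductase that turns 7-dehydrocholesterol into cholesterol, the last step. Its level was 8.33, 8.18 and 8.13 in CHIR/XAV EpiSCs, 7.79, 7.91 and 7.93 in FGF2/activin EpiSCs, and 8.25, 8.21 and 8.24 in ESCs. The CHIR/XAV arrays lay on either side of the ESC arrays, and only FGF2/activin EpiSCs stood apart. In CHIR/XAV EpiSCs the change was -0.02, with a 95% interval from -0.17 to 0.13 (limma adjusted p = 0.844), and its sign depends on the scaling. In FGF2/activin EpiSCs Dhcr7 fell by 0.36 (SE 0.07, adjusted p = 0.000709), and the difference between the EpiSC cultures was 0.34 (adjusted p = 0.00169).

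Insig1, which encodes the sterol-sensing retention protein, changed most of the 8 genes against ESCs in each EpiSC culture. It stood at 8.89, 9 and 9.24 in CHIR/XAV EpiSCs, 8.92, 9.05 and 9.04 in FGF2/activin EpiSCs, and 10.68, 10.58 and 10.60 in ESCs. The EpiSC cultures overlapped each other, and the gap to ESCs was over 1 log2 unit for every array. Insig1 was 2.98-fold lower in CHIR/XAV EpiSCs (log2 change -1.58, SE 0.09, limma adjusted p = 1.59e-09) and 3.06-fold lower in FGF2/activin EpiSCs (log2 change -1.61, SE 0.09, adjusted p = 9.28e-10). Only 1.38% of all genes changed further down in CHIR/XAV EpiSCs and 1.51% in FGF2/activin EpiSCs. CHIR/XAV minus FGF2/activin EpiSCs was 0.04, with a 95% interval from -0.15 to 0.22 (adjusted p = 0.763).

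Srebf2, the gene of the transcription factor itself, kept the order of Idi1. Its level was 9.68, 9.77 and 9.84 in CHIR/XAV EpiSCs, 9.09, 9.16 and 9.16 in FGF2/activin EpiSCs, and 9.54, 9.57 and 9.63 in ESCs. The FGF2/activin arrays were lowest by a wide margin, while the lowest CHIR/XAV array was only just above the highest ESC array. Srebf2 fell by 0.45 (SE 0.07, limma adjusted p = 5.44e-05) in FGF2/activin EpiSCs, and CHIR/XAV EpiSCs were higher than FGF2/activin EpiSCs by 0.63 (SE 0.07, adjusted p = 3.81e-06). The rise of 0.18 in CHIR/XAV EpiSCs against ESCs (adjusted p = 0.0398) is a borderline call. It was lost without CHIR/XAV replicate 2 or 3, FGF2/activin replicate 1 or 2, or ESC replicate 1 or 2 (adjusted p from 0.0515 to 0.139), in a fit of only these groups (adjusted p = 0.0667), after quantile normalization (adjusted p = 0.11) and after centring over the tested genes (adjusted p = 0.329).

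**Figure D2:**
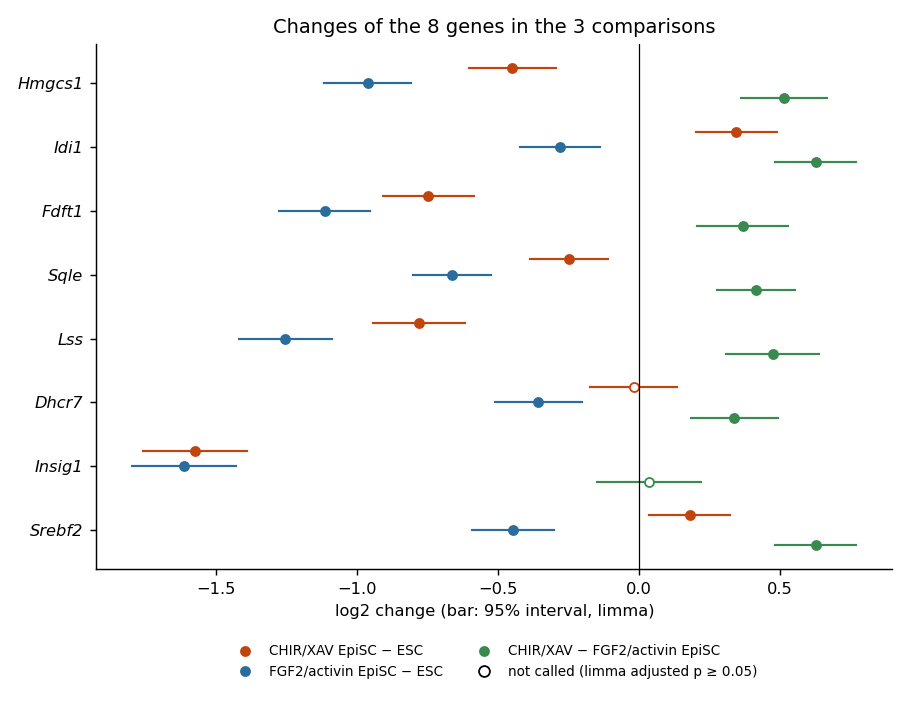
Log2 change of each gene in the 3 comparisons, with CHIR/XAV EpiSCs against ESCs in orange, FGF2/activin EpiSCs against ESCs in blue, and CHIR/XAV against FGF2/activin EpiSCs in green. Bars are 95% intervals from limma and open circles are changes not called. All blue points lie left of 0, and all green points but that of Insig1 lie right of 0 with their intervals.

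Counted over the set, FGF2/activin EpiSCs were lower than ESCs in 8 of 8 genes, with a median change of -0.81. Over all genes in that comparison 33.5% were called lower, 27.8% higher and 61.3% in either direction, and the median change was -0.08. In CHIR/XAV EpiSCs 5 of the 8 genes fell against ESCs (Hmgcs1, Fdft1, Sqle, Lss and Insig1), 2 were called higher (Idi1 and Srebf2) and Dhcr7 was not called, with a median of -0.35. The background there was 22.1% called lower, 24.7% higher and 46.7% in either direction, with a median of -0.03. These comparisons share the ESC arrays, so their values stand side by side and are not independent results.

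Set among all genes of the same comparison, Insig1 was followed in CHIR/XAV EpiSCs by Lss, with 4.83% of genes changed further down, Fdft1 with 5.17%, Hmgcs1 with 9.81% and Sqle with 18.7%. On the other side 17.9% of genes changed further up than Idi1 and 26.2% further up than Srebf2. In FGF2/activin EpiSCs the shares further down were 2.44% for Lss, 2.93% for Fdft1, 3.68% for Hmgcs1, 6.17% for Sqle, 11.2% for Srebf2, 16.2% for Dhcr7 and 23.2% for Idi1. The order from Insig1 through Lss, Fdft1 and Hmgcs1 to Sqle was thus the same in both cultures, which share the ESC arrays. In CHIR/XAV against FGF2/activin EpiSCs the shares further up were 3.9% for Srebf2, 3.92% for Idi1, 5.5% for Hmgcs1, 6.26% for Lss, 7.62% for Sqle, 9.3% for Fdft1 and 10.6% for Dhcr7.

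Set directly against FGF2/activin EpiSCs, CHIR/XAV EpiSCs were higher in 7 of the 8 genes, with a median of 0.44. Of all genes 20.5% were called higher, 21.1% lower and 41.6% in either direction, with a median of 0.05. The exception was Insig1. The differences ran from 0.34 for Dhcr7 to 0.63 for Srebf2 and Idi1, so none of the 7 reached 2.0-fold. A limma treat test, which asks whether a change exceeds 1.5-fold, called Insig1 alone in CHIR/XAV EpiSCs against ESCs, called Hmgcs1, Fdft1, Lss and Insig1 in FGF2/activin EpiSCs, and called none of the 8 between the EpiSC cultures, where it called 1175 of all genes.

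The balance of calls over all genes depends on the scaling between arrays and on the level of the genes, which bears on the background. In FGF2/activin EpiSCs 45.3% of the calls against ESCs were higher as deposited, 55.1% after centring each array on its median over all probe sets, and 35.0% after centring over the tested genes alone. In CHIR/XAV EpiSCs 52.7% were higher as deposited and 35.0% after centring over the tested genes, which moved the median change of all genes from -0.031 to -0.132. Of the 8 genes, only Dhcr7 in CHIR/XAV EpiSCs against ESCs changed sign under any of these scalings. Leaving out the dimmest 40% of genes, which keeps all 8, also moved the balance. Then 43.3% were called higher and 29.3% lower in FGF2/activin EpiSCs against ESCs, and 37.7% and 28.5% in CHIR/XAV EpiSCs against ESCs. In CHIR/XAV against FGF2/activin EpiSCs 24.1% were then called higher and 34.4% lower.

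**Figure D3:**
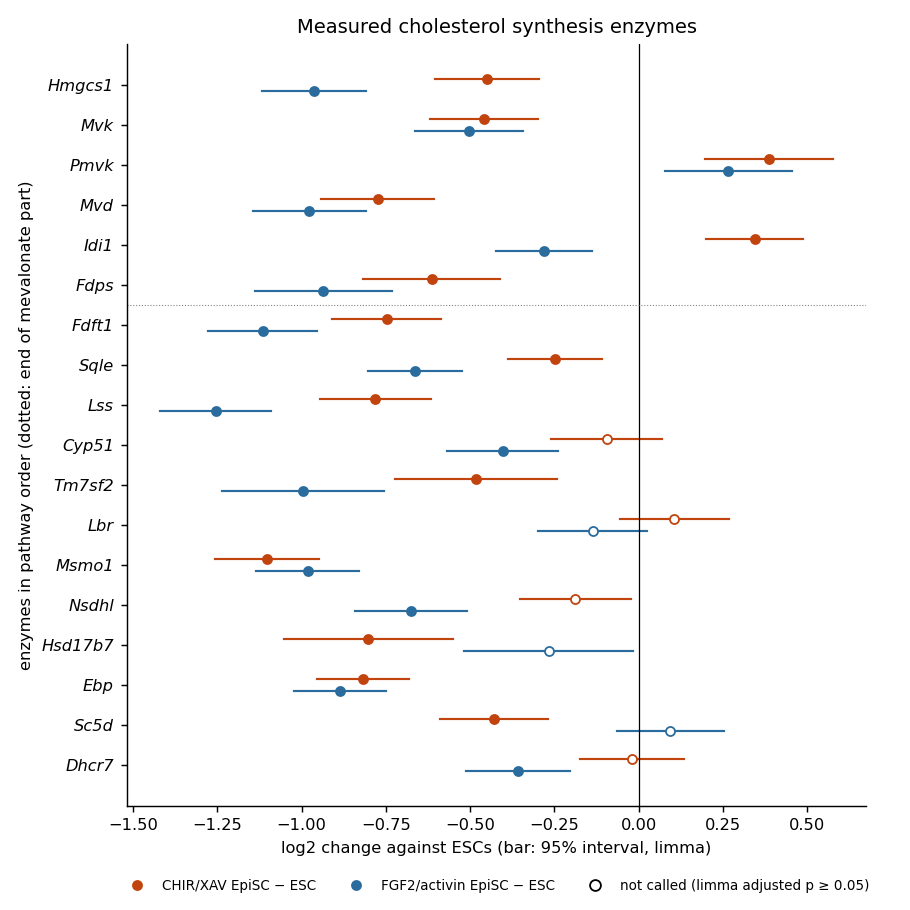
Log2 change against ESCs of the 18 measured cholesterol synthesis enzymes in pathway order, with CHIR/XAV EpiSCs in orange and FGF2/activin EpiSCs in blue. Bars are 95% intervals and open circles changes not called. Most points lie left of 0, and the filled points to the right of it are those of Pmvk and, in CHIR/XAV EpiSCs, Idi1.

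The wider synthesis pathway was taken as a list of 21 enzymes, of which 18 were measured, the 6 above among them. The others were not analysed here. In FGF2/activin EpiSCs 14 of the 18 fell and 1 was called higher relative to ESCs, with a median of -0.67, against 33.5% of all genes called lower, 27.8% called higher and a median of -0.08. In CHIR/XAV EpiSCs 12 fell and 2 rose, with a median of -0.45, against 22.1% of all genes called lower, 24.7% called higher and a median of -0.03. In the mevalonate part, Mvd, the decarboxylase that makes isopentenyl diphosphate, fell by 0.77 (SE 0.08) in CHIR/XAV EpiSCs and by 0.98 (SE 0.08) in FGF2/activin EpiSCs. Fdps, farnesyl diphosphate synthase, fell by 0.61 and 0.94 in the same cultures, and Mvk, mevalonate kinase, by 0.46 and 0.50. Pmvk, phosphomevalonate kinase, went the other way, with rises of 0.39 (SE 0.09) in CHIR/XAV EpiSCs and 0.27 (SE 0.09) in FGF2/activin EpiSCs. The rise in FGF2/activin EpiSCs was lost after quantile normalization, after centring over the tested genes, and without FGF2/activin replicate 1 or 2 or ESC replicate 3, each of which left 0 of the 18 enzymes called higher.

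Among the enzymes after squalene, Msmo1, a sterol C4-methyl oxidase, was 2.15-fold and 1.98-fold lower, at 9.71 ± 0.13 in CHIR/XAV EpiSCs and 9.83 ± 0.02 in FGF2/activin EpiSCs against 10.81 ± 0.03 in ESCs (SD, n = 3 each). Ebp, the sterol isomerase, fell by 0.82 and 0.89 in the same cultures, and Tm7sf2, a sterol C14-reductase, by 0.48 and 0.99. Tm7sf2 was dim, at 6.98 in ESCs. Lbr, a brighter gene of the same list at 9.96 in ESCs, was called in neither culture, at 0.11 (SE 0.07) and -0.14 (SE 0.07). Cyp51 was not called in CHIR/XAV EpiSCs (-0.095, SE 0.08) and fell by 0.40 in FGF2/activin EpiSCs. Hsd17b7, which acts at the C4 demethylation, fell by 0.80 (SE 0.12) in CHIR/XAV EpiSCs and was not called in FGF2/activin EpiSCs (-0.27, SE 0.12). Sc5d, the C5-desaturase, fell by 0.43 (SE 0.07) in CHIR/XAV EpiSCs and was not called in FGF2/activin EpiSCs (0.09, SE 0.07).

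Of the 18 enzymes 11 were higher and 2 lower in CHIR/XAV than in FGF2/activin EpiSCs, with a median of 0.31, against 20.5% and 21.1% of all genes. Besides the genes of the set, the higher ones included Tm7sf2 (0.51), the X-linked sterol dehydrogenase gene Nsdhl (0.49) and Fdps (0.32). The lower ones were Hsd17b7 (-0.53) and Sc5d (-0.52), the same enzymes for which the fall against ESCs was called in CHIR/XAV EpiSCs only. Msmo1, Ebp, Mvk, Mvd and Pmvk did not pass the test between the cultures, Mvd only narrowly (0.20, limma adjusted p = 0.0504). The count of enzymes called higher ran from 9 to 12 with single arrays left out and was 14 after quantile normalization.

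Of 9 genes that control SREBP processing 7 were measured, and the others were not analysed here. Against ESCs, 3 genes of the list were called higher in CHIR/XAV EpiSCs with 2 called lower, where 24.7% of all genes were called higher and 22.1% lower. For FGF2/activin EpiSCs the list had 2 called higher and 3 lower, where the shares over all genes were 27.8% and 33.5%. The difference between these counts was not tested. Insig2, which encodes the second INSIG protein and is less dependent on SREBP, ran opposite to Insig1. It stood at 8.14 ± 0.06 in CHIR/XAV EpiSCs and 8.60 ± 0.32 in FGF2/activin EpiSCs against 7.68 ± 0.11 in ESCs (SD, n = 3 each), a rise of 0.46 (SE 0.12, limma adjusted p = 0.00668) and of 0.92 (SE 0.12, adjusted p = 1.73e-05). Scap, the gene of the escort protein, rose by 0.21 and 0.255 in the same cultures. Srebf1, the gene of the SREBP more tied to fatty acids, was not called in either, at -0.16 (SE 0.06) and -0.01 (SE 0.06). The protease gene Mbtps1 fell by 0.21 in CHIR/XAV EpiSCs, and Rnf139, a ubiquitin ligase gene, fell by 0.51 in FGF2/activin EpiSCs.

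**Figure D4:**
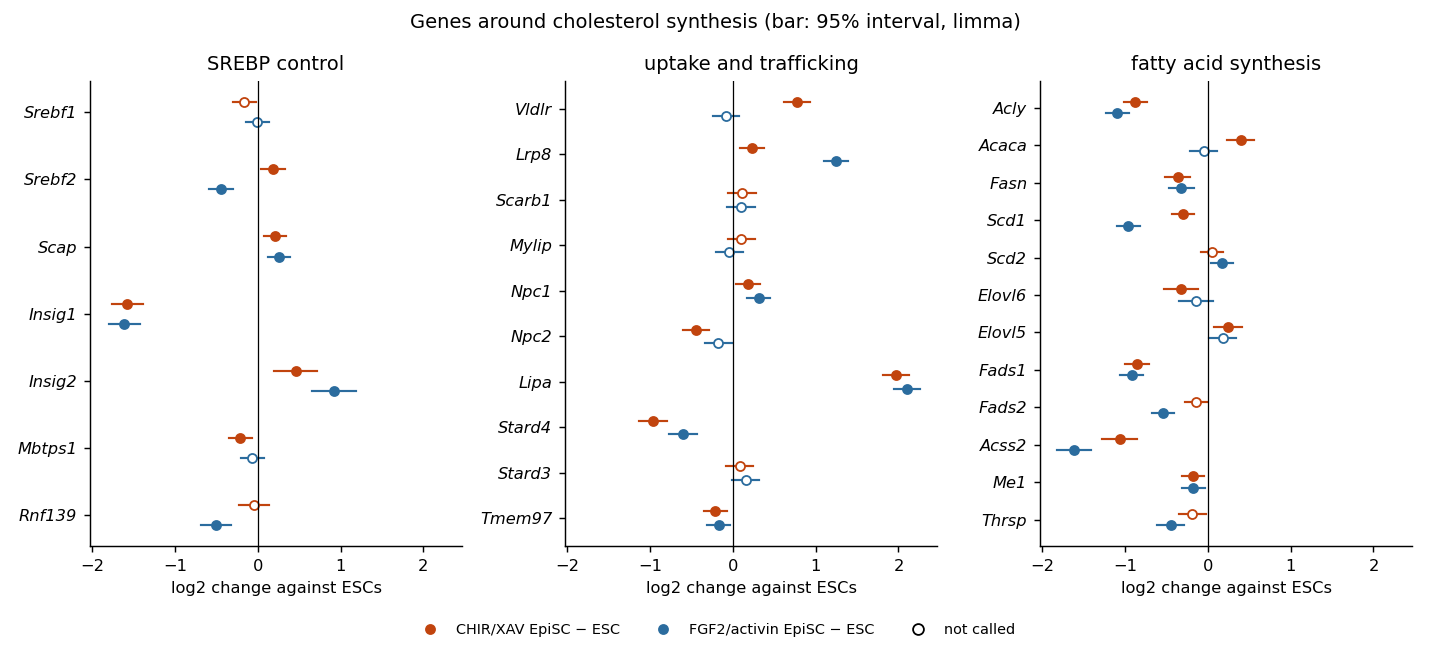
Log2 change against ESCs of the measured genes of SREBP control, of cholesterol uptake and trafficking, and of fatty acid synthesis, with CHIR/XAV EpiSCs in orange and FGF2/activin EpiSCs in blue. Bars are 95% intervals and open circles changes not called. Insig1 lies at -1.58 and -1.61, Insig2 right of 0, and Lipa furthest right at 1.97 and 2.11.

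Uptake and trafficking genes went both ways. Of 13 listed, 10 were measured, and the others were not analysed here. In CHIR/XAV EpiSCs 4 rose and 3 fell against ESCs, where 24.7% of all genes were called higher and 22.1% lower. In FGF2/activin EpiSCs 3 rose and 2 fell, where the shares over all genes were 27.8% and 33.5%. Lipa, the lysosomal acid lipase that frees cholesterol from lipoprotein esters, rose most, at 8.21 ± 0.02 in CHIR/XAV EpiSCs and 8.35 ± 0.10 in FGF2/activin EpiSCs against 6.25 ± 0.11 in ESCs (SD, n = 3 each), which is 3.91-fold and 4.31-fold higher. The lipoprotein receptor genes Vldlr and Lrp8 differed by culture. Vldlr rose by 0.77 (SE 0.07) in CHIR/XAV EpiSCs and was at -0.09 (SE 0.07) in FGF2/activin EpiSCs. Lrp8 rose in both, by 0.23 (SE 0.07) and 1.24 (SE 0.07). Scarb1, of the same list, was not called in any comparison, at 0.11 (SE 0.08) and 0.10 (SE 0.08) against ESCs. CHIR/XAV minus FGF2/activin EpiSCs was 0.86 for Vldlr and -1.01 for Lrp8, both called. Stard4, a sterol carrier gene, fell by 0.96 and 0.60 against ESCs in the same cultures. Npc1, which exports cholesterol from lysosomes, rose by 0.18 and 0.31, and its partner Npc2 fell by 0.44 in CHIR/XAV EpiSCs.

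Of the 10 measured efflux and esterification genes, 1 rose and 2 fell in CHIR/XAV EpiSCs, and 1 rose and 5 fell in FGF2/activin EpiSCs, each against ESCs, with 46.7% and 61.3% of all genes called in either direction. The cholesterol exporter genes differed: Abca1 fell by 1.11 and 0.69 in the same cultures, and Abcg1 rose by 0.96 in CHIR/XAV EpiSCs and was at -0.04 (SE 0.08) in FGF2/activin EpiSCs. Apoe, the apolipoprotein that accepts exported cholesterol, fell by 0.44 and 0.90. The sterol hydroxylase genes Cyp27a1 (-0.65) and Cyp46a1 (-0.40) fell in FGF2/activin EpiSCs. Their mean levels, 4.68 and 5.04 there against 5.33 and 5.44 in ESCs, lay below the array medians, which ran from 5.57 to 5.65. So did Abca1 in CHIR/XAV (4.68) and FGF2/activin EpiSCs (5.11), against 5.80 in ESCs. How far values this dim measure the transcripts was not tested. Nceh1, a cholesteryl ester hydrolase gene, was the rise in FGF2/activin EpiSCs, by 0.37.

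Fatty acid synthesis draws on the same acetyl-CoA and is also an SREBP programme. Of 12 genes, all measured, 7 fell and 2 rose in CHIR/XAV EpiSCs (median -0.25), and 8 fell and 1 rose in FGF2/activin EpiSCs (median -0.39), each against ESCs. Over all genes 22.1% were called lower and 24.7% higher in CHIR/XAV EpiSCs, and 33.5% lower and 27.8% higher in FGF2/activin EpiSCs. Acss2, which makes acetyl-CoA from acetate, fell by 1.07 (SE 0.10) and 1.62 (SE 0.10), and Acly, which makes it from citrate, had changes of -0.88 (SE 0.06) and -1.095 (SE 0.06). Fads1, a fatty acid desaturase gene, fell by 0.85 and 0.92, and Scd1, the stearoyl-CoA desaturase gene, by 0.30 and 0.96. Acaca, the acetyl-CoA carboxylase gene, rose by 0.40 in CHIR/XAV EpiSCs, and the rise in FGF2/activin EpiSCs was that of Scd2, by 0.17. In CHIR/XAV against FGF2/activin EpiSCs 6 of the 12 were higher and 0 lower, against 20.5% and 21.1% of all genes, led by Scd1 (0.66), Acss2 (0.55), Acaca (0.45) and the desaturase gene Fads2 (0.40).

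The isoprenoid branch, which diverts mevalonate products to protein prenylation and ubiquinone, was measured through 10 genes. Of these 0 rose and 3 fell in CHIR/XAV EpiSCs and 3 rose and 2 fell in FGF2/activin EpiSCs, each against ESCs, where 46.7% and 61.3% of all genes were called in either direction. Ggps1, which makes geranylgeranyl diphosphate, rose by 0.44 in FGF2/activin EpiSCs, as did the prenyltransferase subunit genes Pggt1b (0.56) and Fnta (0.40), while Fntb (-0.64 and -0.35) and Rabggtb (-0.43 and -0.46) fell in CHIR/XAV and FGF2/activin EpiSCs. In CHIR/XAV against FGF2/activin EpiSCs 7 of the 10 were lower and 0 higher, against 21.1% and 20.5% of all genes, among them Coq2 (-0.54), Pggt1b (-0.53) and Ggps1 (-0.45).

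Sqle and Srebf2 lie on chromosome 15, and the 20 nearest expressed neighbours of each, 10 on each side in gene order, were set beside them. The neighbours of Sqle had a median change of 0.52 in CHIR/XAV EpiSCs and 0.07 in FGF2/activin EpiSCs against ESCs, with 13 called higher and 2 called lower for CHIR/XAV and 10 called higher and 5 called lower for FGF2/activin. Over all genes the shares were 24.7% higher with 22.1% lower for CHIR/XAV, and 27.8% higher with 33.5% lower for FGF2/activin. The neighbours were drawn only from genes above the dimmest 40%. In a fit of those genes alone the shares were 37.7% higher with 28.5% lower for CHIR/XAV, and 43.3% higher with 29.3% lower for FGF2/activin. Sqle minus its neighbours' median was -0.765 and -0.74. The neighbours of Srebf2 had medians of 0.205 and -0.08 in the same cultures, with 10 called higher and 3 called lower for CHIR/XAV and 6 in each direction for FGF2/activin. The Srebf2 change of 0.18 in CHIR/XAV EpiSCs was close to its neighbours' median, and its change of -0.45 in FGF2/activin EpiSCs lay below theirs. In CHIR/XAV against FGF2/activin EpiSCs the median over the neighbours of Srebf2 was 0.285 against 0.63 for Srebf2 itself. Over those of Sqle it was 0.15 against 0.41 for Sqle. Of the 20 neighbours of Srebf2 12 were called higher and 0 lower there, and of those of Sqle 8 higher and 1 lower. Over all genes 20.5% were called higher and 21.1% lower in that comparison. In the fit without the dimmest 40% these shares were 24.1% and 34.4%. The part of the neighbours' changes in the values of both genes was not tested.

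**Figure D5:**
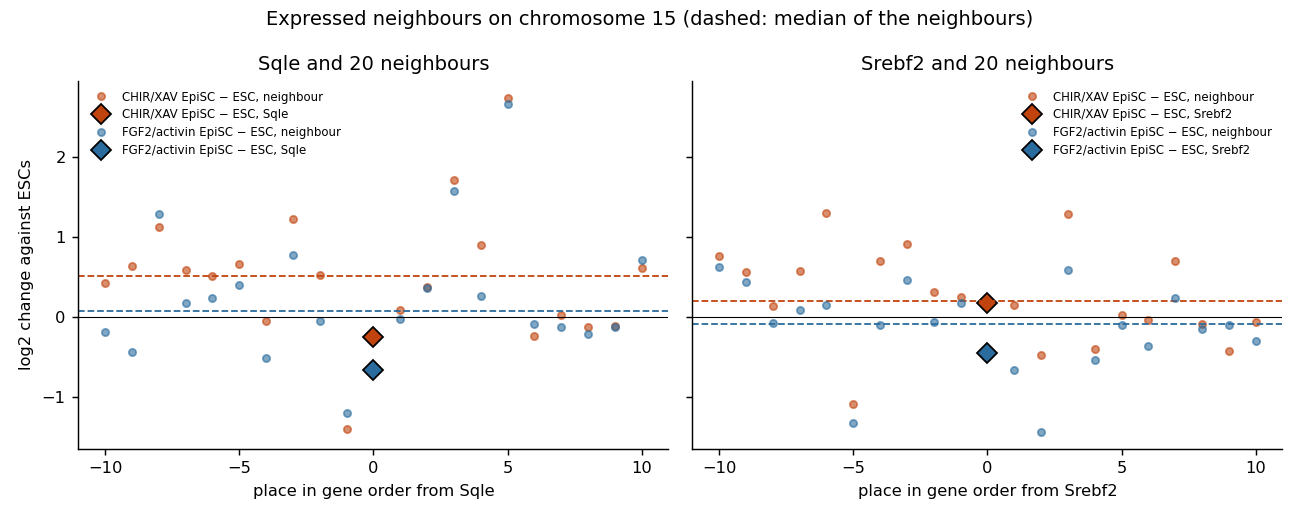
Log2 change against ESCs of Sqle (left) and Srebf2 (right), as diamonds, and of their 20 nearest expressed neighbours on chromosome 15, as circles, by place in gene order. CHIR/XAV EpiSCs are orange and FGF2/activin EpiSCs blue, and dashed lines are the neighbours' medians. Sqle lies below both lines, and Srebf2 lies close to the line in CHIR/XAV EpiSCs and below it in FGF2/activin EpiSCs.

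Over the 9 arrays the 8 genes fell into patterns that the group means set, so correlations are given as description only. Fdft1 and Lss followed each other most closely (Pearson r = 0.976), and Hmgcs1 followed Lss (0.97) and Sqle (0.96). Idi1 followed Srebf2 (0.908) and had no relation to Insig1 (-0.047). Among 6729 genes whose group means span at least 0.5, those most like Insig1 were Ror1 (0.998), Ly75 (0.998) and Car8 (0.997), and those most like Srebf2 were Cyba (0.991), Def6 (0.99) and Slc1a4 (0.988). Idi1 was nearest to Hmgcll1 (0.989), Crlf2 (0.989) and Derl3 (0.986), Hmgcs1 to Tspan17 (0.996), Usp28 (0.996) and Mei4 (0.995), and Sqle to Gcat (0.992), Syngr1 (0.99) and Cenpm (0.99). Fdft1 was nearest to Wdr5 (0.996), Uck2 (0.996) and Pnkd (0.995), Lss to Ripply1 (0.996), Kif5a (0.995) and Prr23a3 (0.994), and Dhcr7 to Mir139 (0.972), Zfp971 (0.97) and Bcl3 (0.969). All of these points share 3 groups of arrays.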

How the data were processed

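Per the submitters' processing notes, RMA and Partek were used, and the deposited table holds 1 log2 value for each probe set on each array. No versions are known here. Background correction and between-array normalization inside RMA compress changes of dim genes, and no detection calls were used. Only the 21789 of 35399 probe sets annotated with a single symbol were tested, which left out 1621 with several and 11989 unnamed ones. Symbols were updated by gene identifier (19856 of 19938 genes matched the GRCm38.p6 RefSeq table), and the brightest probe set by mean was kept for 999 genes with several.

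Group contrasts used the moderated test of limma 3.58.1 under R 4.3.3, with all 9 arrays in 1 fit without covariates, with Benjamini-Hochberg adjustment over 19938 genes. The fit was tested on simulated data with independent noise and few genes changed, in the CHIR/XAV group only. Such data cannot show the effect of scaling or of differences shared by arrays of a group. The number of arrays limits the precision.

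The genes and lists were chosen with earlier results of these data known. From each list up to 4 called genes with the largest change per comparison are named. Pmvk, Lbr, Cyp51, Srebf1, Scarb1, Nceh1, Scd2, Col1a2, Sox17 and Ttr were named after their values were seen. Likeness was ranked by Pearson correlation over 9 arrays. Expressed neighbours are genes above the dimmest 40%. Alternatives tried were the mean or the dimmest probe set of a gene, leaving out dim genes, a robust trended variance, 2-group fits, centring, quantile normalization, array weights, a replicate block, each array left out and treat.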

Additional observations from a re-analysis of the deposited data

Results flagged for a closer look

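The effects of the EpiSC cultures relative to ESCs differed from each other, by the test of the difference itself (limma, CHIR/XAV minus FGF2/activin EpiSCs, adjusted p from 3.81e-06 to 0.00169), for 7 of the 8 genes. The differences were 0.51 for Hmgcs1, 0.63 for Idi1, 0.37 for Fdft1, 0.41 for Sqle, 0.47 for Lss, 0.34 for Dhcr7 and 0.63 for Srebf2 on the log2 scale, with CHIR/XAV higher. The shares over all genes were 20.5% called higher and 21.1% called lower in that comparison. Idi1 and Srebf2 were called higher in CHIR/XAV EpiSCs and lower in FGF2/activin EpiSCs than in ESCs. With 3 arrays a group, no test for outlying arrays was made, and the effect of leaving out each array is given below.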

How the results depend on the processing

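The treat test against 1.5-fold moved every count that was above 0: calls over all genes were 2241 in CHIR/XAV EpiSCs against ESCs, 2726 in FGF2/activin EpiSCs against ESCs and 1175 between the EpiSC cultures. Of the 8 genes it left 0 higher and 1 lower in CHIR/XAV EpiSCs, 4 lower in FGF2/activin EpiSCs and 0 higher between the cultures, and of the 18 enzymes 0 higher and 2 lower, 0 higher and 8 lower, and 0 in either direction, because it asks for a larger change. Of the 2 genes called higher in CHIR/XAV EpiSCs against ESCs, Srebf2 was lost and 1 was left with only these groups in the fit, after quantile normalization and after centring over the tested genes. The 1 enzyme called higher in FGF2/activin EpiSCs, Pmvk, was lost, leaving 0, after quantile normalization and after that centring. Leaving out single arrays gave 1 to 2 of the genes and 0 to 1 of the enzymes in these counts. Changes that were not called reversed in 2 cases: Dhcr7 in CHIR/XAV EpiSCs was 0.003 after centring on all probe sets and 0.023 without CHIR/XAV replicate 3 (from -0.079 to 0.023 over single arrays left out), and Insig1 between the EpiSC cultures was -0.061 without CHIR/XAV replicate 3 and -0.006 without FGF2/activin replicate 1 (from -0.061 to 0.112 over single arrays left out). Where no construction shows the cause, the cause was not tested. The dimmest probe set and the centring over tested genes were chosen after seeing the data.

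With the replicate number as a block, 9325, 12202 and 8246 genes were called in the 3 comparisons, against 9320, 12218 and 8300 without it, and no call among the 8 genes changed. Arrays with the same number correlated in their deviations from the group means from -0.071 to 0.239, so the numbers were not taken to pair the arrays. Some genes of the pathway lists, fatty acid synthesis apart, were not analysed here, and transcript levels say nothing of cholesterol itself.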
